A study of Mus musculus with 18 samples.

Results

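The effect of losing Acly in mouse T-cell acute lymphoblastic leukaemia was read at 2 times, and the 2 effects were set against each other gene by gene. The genes compared were those with a mean value of at least 10 in both deposited expression tables. That rule kept 13742 of the 19509 genes listed in either table, and it used mean levels only, not differences between groups. Just inside it lay Lrat, with means of 12.7 and 10.01 in the acute and survival tables, and just outside it Atp13a4, with means of 17.9 and 9.998. The acute effect is the mean log2(value + 1) of 4 KO_acute libraries minus that of 4 WT_acute libraries. The endpoint effect is the mean of 6 KO_survival libraries minus that of 4 WT_survival libraries. The 2 effects share no library, and no level was compared across the tables.

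All 18 libraries are bulk RNA of leukaemic spleens of C57BL/6 mice. Every mouse was sub-lethally irradiated and received an intravenous transplant of T-ALL with a conditional Acly allele, so the libraries labelled WT carry that allele too and differ by having received corn oil alone. For the acute groups, mice with overt leukaemia were given corn oil or tamoxifen (3 mg per mouse, intraperitoneal) and spleens were taken 48 h later. For the survival groups, the same treatments were given 48 h after transplantation and spleens were taken at the humane endpoint. The KO endpoint libraries fall into a first and a second wave of 3 libraries each, and the labels do not say what separates the waves. Tamoxifen was given to every KO group and to no WT group, so an effect of the drug and of the deletion cannot be told apart. The labels give neither the deleted exons, the Cre, the number of leukaemias nor a mouse for each library. The series' design text gives a smaller number of samples per genotype than the 10 KO and 8 WT libraries listed, and the sources used here do not settle which libraries it counts. The p-values therefore measure the spread between these libraries, which may in part be technical.

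ATP-citrate lyase, the product of Acly, splits citrate exported from mitochondria into oxaloacetate and acetyl-CoA. The acetyl-CoA is used to build fatty acids and cholesterol and to acetylate proteins, histones among them. Leukaemic T cells depend on glycolysis and on mitochondrial oxidation for the citrate, and many carry active NOTCH1, a receptor that drives growth and anabolic genes in this leukaemia.

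Acly itself was lower in the KO libraries at both times. At 48 h its normalized values were 793, 804, 717 and 620 in KO_acute and 1422, 1129, 1231 and 1241 in WT_acute. At the endpoint they were 725, 656 and 800 in the first wave, 505, 569 and 655 in the second wave, and 1722, 1727, 1854 and 1486 in WT_survival. The groups did not overlap in either table. The KO mean was 58.4% of the WT mean at 48 h (exact two-sided permutation p = 0.0286) and 38.4% at the endpoint (exact p = 0.00476), the smallest p these group sizes allow. On the log2 scale the difference was -0.78 (SE 0.13, adjusted p = 0.00266) at 48 h and -1.39 (SE 0.14, adjusted p = 0.000798) at the endpoint. The endpoint effect was lower than the acute one by 0.61 (log2 difference of -0.61, SE 0.19, adjusted p = 0.0326), a call that 13 of 33 alternative settings lost. Without KO_acute 1 and 2 it was -0.48 (adjusted p = 0.127).

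Some libraries stood apart. KO_acute 1 and 2 had 4.8% and 5.27% of their normalized total on mitochondrially encoded genes, KO_acute 3 and 4 had 2.35% and 2.7%, and the WT_acute libraries had 3.5 to 3.69%. WT_survival 1 and 2 stood apart from WT_survival 3 and 4 in neutrophil and T-cell genes, given below. The T cell and T-ALL markers were present in every library, at 0.381 to 0.894% of the total. Of the 60 genes with values reported here that were called at 48 h, 21 were not called without KO_acute 1 and 2. Of the 73 whose 2 effects differed, 25 were not called without WT_survival 1 and 2, and 10 without KO_acute 1 and 2. Over all genes, 903 were called at 48 h without KO_acute 1 and 2, and 964 for the difference without WT_survival 1 and 2.

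At 48 h 1794 of 14184 genes tested passed an adjusted p of 0.05, and at the endpoint 3 of 14286 did. Among the 13742 genes compared, 642 were higher in KO at 48 h (4.67% of genes tested) and 1144 were lower (8.32%). The 3 endpoint genes (0.0218%) were Acly and H2-Q7, which were lower, and Ccnd1, which was higher. A further measure of endpoint change is an unadjusted p below 0.05, which 1795 genes had (13.1%), where chance gives about 1 in 20. That number depended on the control libraries. Over the genes tested at the endpoint, the count was 1838 of 14286 with all libraries. It was 677 of 14201 without WT_survival 1 and 2, and 2975 of 14302 without WT_survival 3. Acly was the 1 gene called at both times. The acute split between higher and lower depended on the scaling: with quantile normalization it was 746 higher and 832 lower, and with trends over length, GC content and abundance removed it was 725 and 775. On the log2 scale, the median absolute difference was 0.35 at 48 h and 0.27 at the endpoint, and the median standard error was 0.25 and 0.27.

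Across the 13742 genes the 2 effects more often had opposite than equal signs. Both were positive for 2820 genes and both negative for 2748, so 5568 genes (40.5%) had the same sign and 8174 had opposite signs. Alone, 51.7% of genes were higher in KO at 48 h and 48.8% at the endpoint. The correlation of the 2 effects across genes was negative, with Pearson's r of -0.22 and Spearman's rho of -0.25 (n = 13742 genes, which share libraries and are not independent replicates). Among the 1786 genes called at 48 h, 454 (25.4%) had the same sign at the endpoint. Of the 1144 genes that fell at 48 h, 861 were positive at the endpoint, with a median endpoint difference of 0.16. Of the 642 that rose, 471 were negative at the endpoint, with a median of -0.23. Among the 351 genes that were called at 48 h and had an unadjusted endpoint p below 0.05, 325 had opposite signs. Membership of that set depends on the control libraries, as does the count of unadjusted endpoint p-values above.

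**Figure D1:**
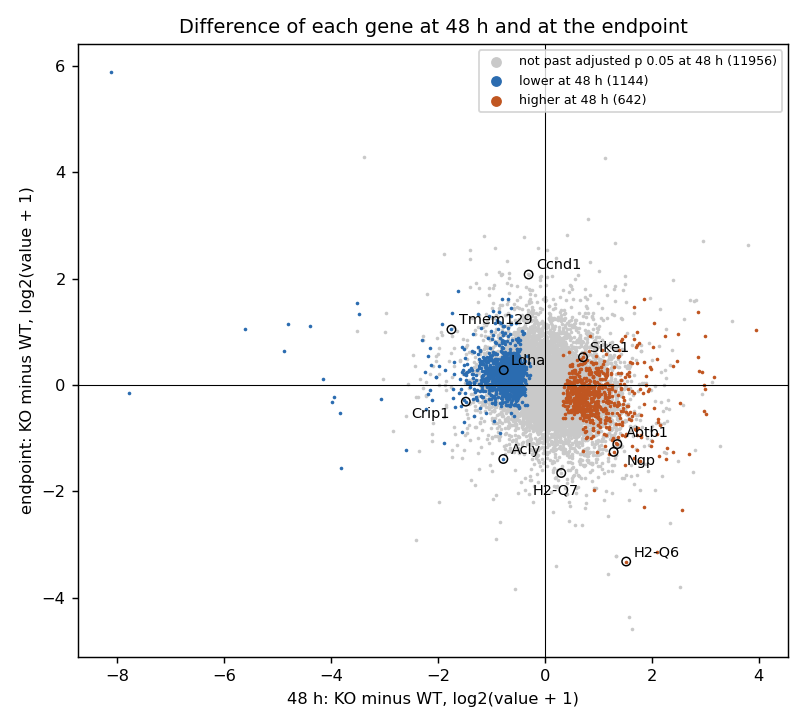
Each point is 1 of the 13742 genes: the horizontal axis is the KO minus WT difference at 48 h and the vertical axis that at the endpoint, both on the log2(value + 1) scale. Of the 1144 blue genes (lower at 48 h), 861 lie above the horizontal line, and of the 642 orange genes (higher at 48 h), 471 lie below it. Circled genes are named in the text.

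The difference between the 2 effects was tested for each gene. It passed an adjusted p of 0.05 for 1951 genes: the endpoint effect was above the acute one for 1234 (8.98%) and below it for 717 (5.22%). Of the 1951 genes, 1216 (62.3%) were also called at 48 h, which is 68.1% of the acute calls. Among those, 836 had fallen at 48 h with a higher endpoint effect, and 379 had risen with a lower one. Because the difference subtracts the acute effect, this split and the overlap with the acute calls are largely set by how it is computed. Neither is read as a result. Acly was the 1 gene outside the split, its acute effect and its difference having the same sign. The other 735 genes were not called at 48 h. Selecting a gene for a large difference between the effects in itself favours opposite signs, so the signs within this set are not read. In the raw values, the KO and WT libraries did not overlap for 2664 genes at 48 h (19.4%), for 296 at the endpoint (2.15%) and for 71 at both times (0.517%). Of those 71 genes, 62 had opposite signs.

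The libraries of the endpoint were not cleanly split along the acute pattern. Relative to the WT mean of their own table, the genes that fell at 48 h had medians of -0.59 to -0.87 in the KO_acute libraries. In the 6 KO endpoint libraries their medians were 0.03 to 0.29, and in WT_survival 1 to 4 they were 0.03, -0.07, 0.21 and -0.17. The genes that rose at 48 h had medians of -0.05 to -0.43 in the KO endpoint libraries and of 0.09, 0.13, -0.32 and 0.13 in WT_survival 1 to 4. WT_survival 3 thus lay among the KO endpoint libraries on both sets, and the groups overlapped. Across genes, the deviation of a library from the midpoint of its table correlated with the acute difference at -0.18 to 0.03 in the KO endpoint libraries (Pearson's r), at -0.19 in WT_survival 3, and at 0.13, 0.19 and 0.20 in WT_survival 1, 2 and 4. Without WT_survival 3 the share of same signs was 38.8%, with 155 endpoint calls and 2740 calls of the difference. Without WT_survival 4 it was 43.1%.

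**Figure D2:**
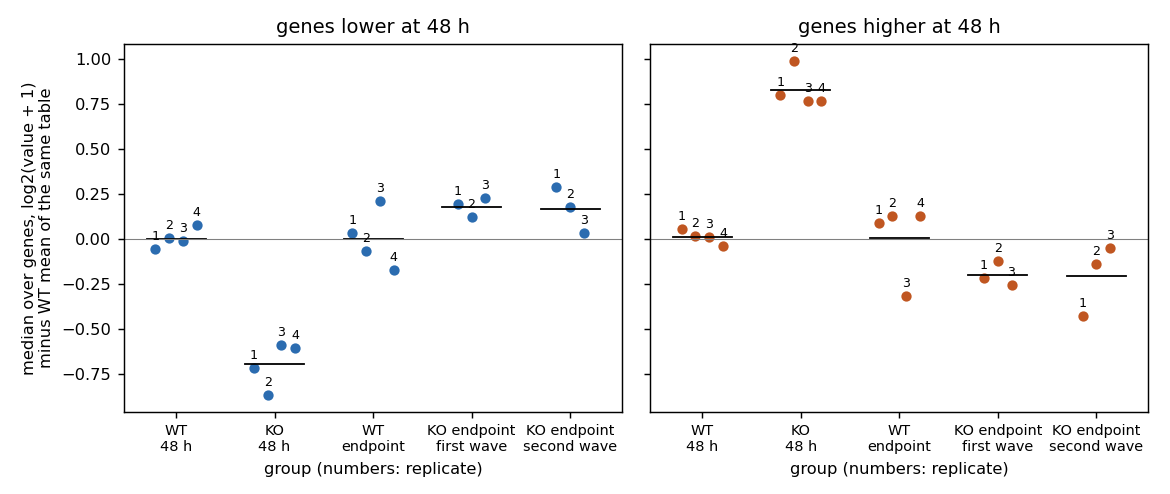
Each point is 1 library: the median, over the genes lower (left) or higher (right) at 48 h, of log2(value + 1) minus the WT mean of the same table, with bars at the group means and replicate numbers beside the points. These genes were selected for their difference between KO_acute and WT_acute, so the separation of the acute groups follows from the choice. The KO endpoint libraries lie on the other side of zero, and WT_survival 3, at 0.21 and -0.32, lies among them.

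Carbon metabolism showed the pattern in named enzymes. The glycolysis list, which turns glucose into pyruvate and lactate, had a median of -0.44 at 48 h and 0.20 at the endpoint, against 0.02 and -0.01 for all genes. The endpoint median was 0.09 without WT_survival 4. Relative to the WT mean, the list had medians of 0.14 and 0.28 in WT_survival 1 and 3, within the range of the KO endpoint libraries. Of the 18 genes of this list compared, 7 fell at 48 h and none rose, where 8.32% and 4.67% of all genes did. The endpoint effect was above the acute one for 8 and below it for none, where all genes had 8.98% and 5.22%. Because the difference subtracts the acute effect, that direction is not read as a result of its own. No gene of the list was called at the endpoint. The same shares and the same limit apply to such counts in the lists below. Ldha, lactate dehydrogenase A, measured 1451, 1096, 1383 and 1468 in KO_acute and 2376, 2277, 2223 and 2272 in WT_acute. At the endpoint it measured 3404, 2716 and 3475 in the first wave, 3701, 3293 and 3214 in the second wave, and 3052, 2601, 3193 and 2111 in WT_survival. The acute groups were separate, KO being the lower, while the endpoint groups overlapped. Its difference was -0.77 (SE 0.12, adjusted p = 0.00163) at 48 h and 0.28 (SE 0.14, adjusted p = 0.422) at the endpoint, and the 2 effects differed (adjusted p = 0.000624). Eno1 (enolase) and Pgk1 (phosphoglycerate kinase) fell at 48 h by 0.97 and 0.81 and were at 0.17 and -0.01 at the endpoint. The difference of Pgk1 was not called without KO_acute 1 and 2 (adjusted p = 0.0643), where 5 genes of the list fell and 4 had a higher endpoint effect. Hk2, a hexokinase that starts glycolysis, was at -0.30 at 48 h and 1.81 at the endpoint, and it was called for the difference alone (adjusted p = 0.0258). Without WT_survival 1 and 2, whose values were 8.64 and 42.1 against 118 and 71.4 in WT_survival 3 and 4, the endpoint value of Hk2 was 0.72 and its difference was not called (adjusted p = 0.205).

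Nuclear genes of mitochondrial oxidation were also mostly negative at 48 h, and their endpoint medians were smaller without WT_survival 4. The tricarboxylic acid cycle list of 21 genes had medians of -0.29 and 0.09 (0.03 at the endpoint without WT_survival 4). At 48 h 4 of them fell and 1 rose, and 17 had opposite signs at the 2 times. Ogdh, a subunit of the 2-oxoglutarate dehydrogenase complex, measured 651, 559, 809 and 627 in KO_acute and 1198, 1244, 1378 and 1778 in WT_acute. It measured 1360, 1428, 1357, 1861, 1449 and 1483 in the KO endpoint libraries and 870, 781, 1582 and 1025 in WT_survival. The acute groups were separate, and at the endpoint 3 WT libraries lay below all KO libraries while WT_survival 3 lay among them. Its difference was -1.08 (SE 0.16, adjusted p = 0.00131) at 48 h and 0.53 (SE 0.18, adjusted p = 0.308) at the endpoint. Its endpoint value turned on the control libraries: it was 0.74 without WT_survival 3, which passed (adjusted p = 0.0473), and 0.22 without WT_survival 1 and 2. Idh3a, a subunit of the mitochondrial isocitrate dehydrogenase, went from -0.98 to 0.46, Sdhb, a subunit of succinate dehydrogenase, from -1.20 to 0.00, and Idh1, the cytosolic isocitrate dehydrogenase, from -0.67 to 0.64. The 2 effects differed for all 3 (adjusted p = 0.000286, 0.0107 and 0.0113), although Idh1 was not called at 48 h. Without WT_survival 1 and 2 the difference was not called for Sdhb (adjusted p = 0.0642) or Idh1 (adjusted p = 0.115, with an endpoint value of 0.22). The number of list genes with a higher endpoint effect was 6, and 2 without those libraries.

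The nuclear respiratory chain genes were mostly negative at 48 h, and a part of them passed the test. Of 35 nuclear genes of complexes III to V, 16 fell at 48 h and none rose, with a median of -0.58. At the endpoint the median was 0.09 (-0.005 without WT_survival 4) and none was called. The endpoint effect was above the acute one for 12 and below it for none. The number that fell was 8 without KO_acute 1 and 2. Of 37 complex I genes, 5 fell at 48 h and 4 had a higher endpoint effect, against 8.32% and 8.98% of all genes. Their medians were -0.45 and 0.07, and 0.01 at the endpoint without WT_survival 4. Atp5b, the catalytic beta subunit of ATP synthase, measured 1651, 1886, 1739 and 1714 in KO_acute and 4117, 3154, 3081 and 3608 in WT_acute. At the endpoint the KO range was 3855 to 6030 (median 5197) and WT_survival measured 4451, 4058, 5369 and 3145. The first pair of groups was separate and the second overlapped. Atp5o (-1.43 to 0.29), Ndufa4 (-1.48 to 0.23) and Ndufb2 (-1.18 to 0.40), further subunits, also differed between the 2 times. The 13 mitochondrially encoded genes had medians of 0.03 and 0.16 and none was called at 48 h. Without KO_acute 1 and 2 their acute median was -0.56 and 10 fell, where the value over all libraries averages KO libraries with shares above and below those of WT.

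Genes that make or use cytosolic acetyl-CoA moved in part. Of 21 genes of the acetyl-CoA list 6 fell at 48 h, Acly among them, and the medians were -0.43 and 0.18. Mpc1, a subunit of the carrier that brings pyruvate into mitochondria, went from -1.06 (adjusted p = 0.00308) to 0.31, and Slc16a1, a monocarboxylate transporter, from -0.58 (adjusted p = 0.00479) to 0.36. Acat2, which condenses acetyl-CoA in the cytosol, was at -0.43 and 0.62, called for the difference alone (adjusted p = 0.0346), a call lost under 12 of 33 alternatives. The lists that use the product stayed nearer to the other genes. The 24 fatty acid synthesis genes had medians of -0.12 and 0.02, with 2 that rose and 1 that fell at 48 h, and none called without KO_acute 1 and 2. Srebf1, a transcription factor of lipid synthesis, measured 506, 596, 565 and 461 in KO_acute against 158, 207, 344 and 393 in WT_acute, with no overlap. Its endpoint values were 340 to 568 in KO and 398 to 737 in WT_survival, and it went from 1.03 (adjusted p = 0.016) to -0.41, with a difference called (adjusted p = 0.00444). Its acute call was lost without KO_acute 1 and 2 (0.98, adjusted p = 0.0875). Acaca, acetyl-CoA carboxylase, went from 0.53 (adjusted p = 0.0387) to -0.16, and its acute call was lost under 9 of 18 alternatives and its difference under 18 of 33. Hacd3, a dehydratase of fatty acid elongation, was at -0.20 and 0.83. Its endpoint groups did not overlap, at 591 to 733 in KO and 318 to 473 in WT_survival, and its difference was called (adjusted p = 0.00265).

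Of 24 cholesterol synthesis genes 4 fell at 48 h, with medians of -0.06 and -0.02. Sqle, squalene epoxidase, went from -0.99 (adjusted p = 0.0105) to 0.15, and Hmgcs1, an early enzyme of the pathway, from -0.56 (adjusted p = 0.0253) to 0.26. The acute call of Hmgcs1 was lost under 9 of 18 alternatives, and that of Sqle without KO_acute 1 and 2 (adjusted p = 0.0654). Of 20 fatty acid oxidation genes 1 fell at 48 h, the peroxisomal thiolase Acaa1a, which went from -0.95 (adjusted p = 0.0099) to 0.05. Acaa1a was not called at 48 h without KO_acute 1 and 2 (adjusted p = 0.068), and 16 of 33 alternatives lost its difference. The histone acetylation list, which holds acetyltransferases, deacetylases and readers, had medians of 0.11 and 0.05 over 30 genes, with 1 that rose and 2 that fell, and none called without KO_acute 1 and 2.

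**Figure D3:**
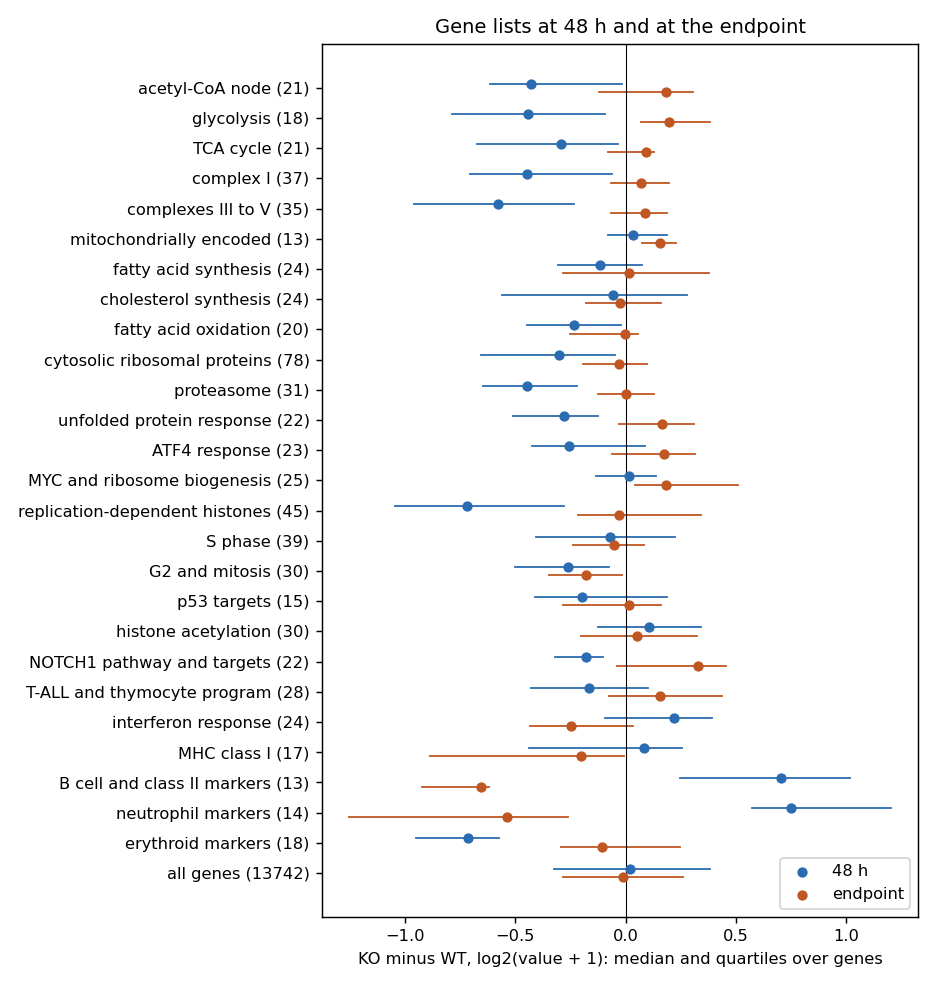
For each gene list (number of genes compared in brackets) the point is the median KO minus WT difference over genes and the line spans the quartiles, on the log2(value + 1) scale, at 48 h (blue) and at the endpoint (orange). Complexes III to V sit at -0.58 and 0.09 and neutrophil markers at 0.75 and -0.54, while all genes sit at 0.02 and -0.01.

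Some genes of protein synthesis, turnover and folding fell at 48 h. Of 78 cytosolic ribosomal protein genes 25 fell and 1 rose (13 and 0 without KO_acute 1 and 2), with medians of -0.30 at 48 h and -0.03 at the endpoint. Rpl39, a protein of the large subunit, measured 770, 640, 1474 and 1287 in KO_acute and 2680, 4232, 4436 and 4476 in WT_acute. At the endpoint its values were 5258 to 6822 in KO and 3195 to 6027 in WT_survival, so the groups overlapped. It went from -1.98 (adjusted p = 0.000947) to 0.36. Ribosomal protein genes have many processed copies in the genome, and reads shared with such copies make single values uncertain. Of 31 proteasome genes 10 fell at 48 h (median -0.45) and 8 had a higher endpoint effect (endpoint median 0.00), among them the core subunits Psma1 (-0.88 to 0.23) and Psma5 (-0.79 to 0.35). Of 22 unfolded protein response genes 8 fell, with medians of -0.28 and 0.17. Pdia3, which forms disulphide bonds in the endoplasmic reticulum, went from -0.99 (adjusted p = 0.00172) to 0.28, and Sdf2l1 from -1.45 to 0.40.

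Amino acid and growth genes were mixed. Of 23 ATF4 response genes 1 rose and 1 fell at 48 h, where 4.67% and 8.32% of all genes did. The medians were -0.26 and 0.17. Psat1, of serine synthesis, went from -0.77 (adjusted p = 0.0167) to 0.49, while Slc7a11, the cystine carrier, went from 0.61 (adjusted p = 0.0471) to -0.51. The acute call of Psat1 was lost without KO_acute 1 and 2 (adjusted p = 0.114), and the difference of Slc7a11 without WT_survival 1 and 2 (adjusted p = 0.185). Mthfd2, a mitochondrial folate enzyme, was at -0.49 and 1.01, and without WT_survival 1 and 2 at 0.09 at the endpoint. Of 25 MYC and ribosome biogenesis genes 3 fell at 48 h, where 8.32% of all genes did. At the endpoint 20 of 25 were positive (median 0.18), against 48.8% of all genes. This median was 0.07 without WT_survival 1 and 2. Odc1, of polyamine synthesis, went from -0.87 (adjusted p = 0.00261) to 0.09, and Ddx21, a nucleolar helicase, from -0.47 (adjusted p = 0.0314) to 0.68. Ddx21 was not called at 48 h without KO_acute 1 and 2 (adjusted p = 0.0874), where 1 gene of the list fell.

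Replication-dependent histone genes had the lowest acute median of the pathway lists, at -0.72 over 45 genes, of which 20 fell and none rose. At the endpoint the median was -0.03, and the endpoint effect was above the acute one for 14. Without KO_acute 1 and 2, 10 fell, and without WT_survival 1 and 2, 6 had a higher endpoint effect. Hist1h4d measured 420, 339, 555 and 533 in KO_acute and 1357, 1715, 1252 and 1626 in WT_acute, with no overlap. It went from -1.70 (adjusted p = 0.000517) to 0.43, and Hist1h4h from -2.18 to -0.17. Histone H4 genes are near-identical copies, so the share of reads given to each is uncertain. Of 39 S phase genes 7 fell and 1 rose at 48 h, and the endpoint effect was above the acute one for 7 (4 without WT_survival 1 and 2). Rfc4, which loads the replication clamp, went from -1.10 (adjusted p = 0.00225) to 0.44. Pcna, the clamp itself, went from -0.78 to 0.07, and Ccne2, a cyclin of S phase entry, from -0.76 to 0.52. The list medians, -0.07 and -0.05, were close to those of all genes.

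The G2 and mitosis list had negative medians at both times, at -0.26 and -0.18 over 30 genes, and 23 genes were negative at the endpoint. At 48 h 9 fell, and 4 without KO_acute 1 and 2. Different members stood at the front at each time. Ccnb1, the mitotic cyclin, measured 1112, 895, 1433 and 1554 in KO_acute and 2486, 2981, 2212 and 2186 in WT_acute, with no overlap, and went from -1.003 (adjusted p = 0.00266) to 0.24. Mad2l1, of the spindle checkpoint, went from -0.86 to 0.23. Cenpf, a kinetochore protein, was at -0.07 at 48 h. At the endpoint it measured 1182, 1440, 1202, 1582, 1056 and 881 in KO and 1795, 2537, 1645 and 1993 in WT_survival, with no overlap, and was at -0.71 (SE 0.18, adjusted p = 0.251), short of the threshold. Cdc25b, a phosphatase that starts mitosis, was at 0.15 and -0.55, with a difference called (adjusted p = 0.0317) that 13 of 33 alternatives lost. Ccng1, a p53 target, went from -1.04 (adjusted p = 0.000968) to 0.60 and had one of the smallest difference p-values (adjusted p = 0.000105). Of the 15 p53 targets compared 2 fell and 1 rose at 48 h, and 3 had a higher endpoint effect (1 without WT_survival 1 and 2).

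**Figure D4:**
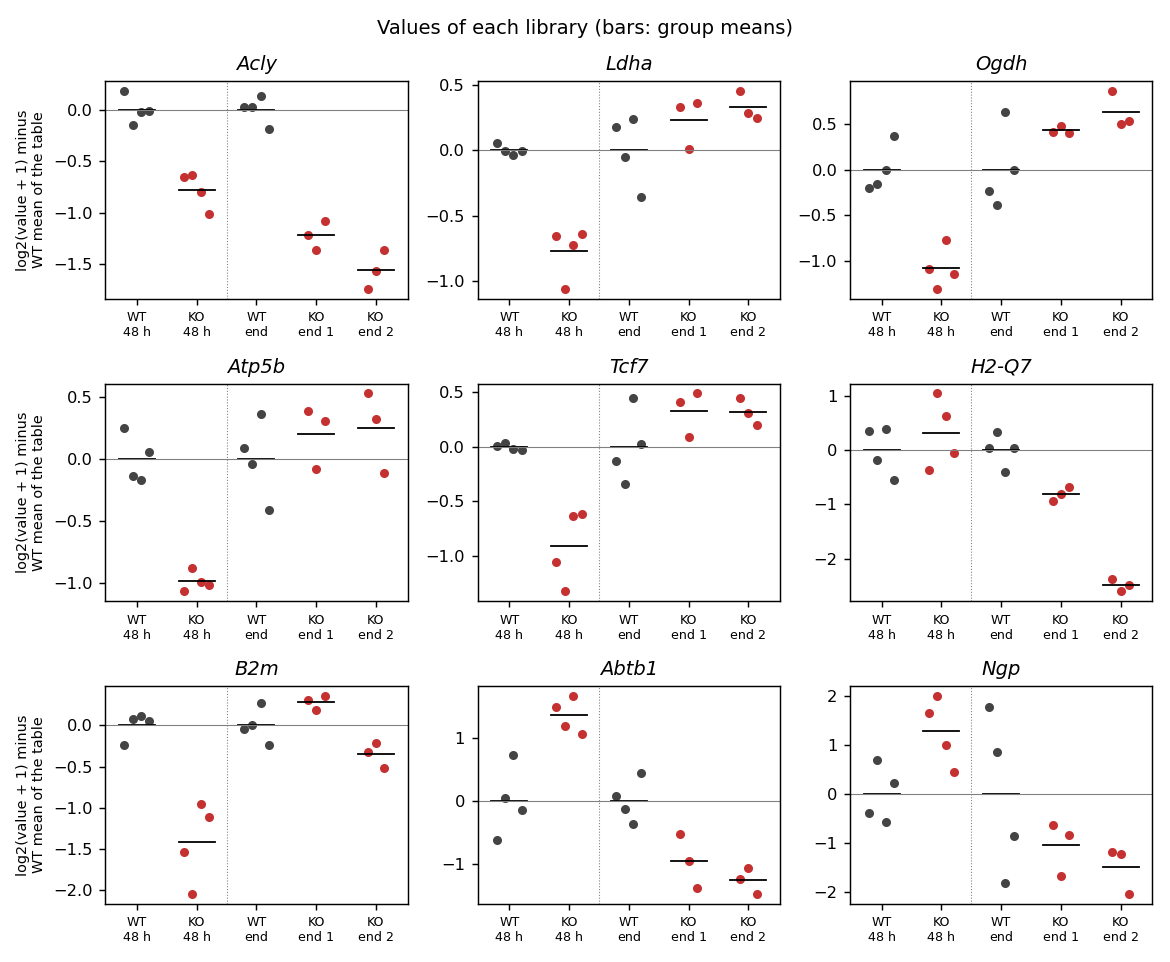
Points are libraries (grey: WT, red: KO), plotted as log2(value + 1) minus the WT mean of the same table, with bars at group means, and end 1 and end 2 are the first and second wave. Acly is lower in KO at both times, Ldha, Ogdh, Atp5b and Tcf7 are lower at 48 h and overlap with WT at the endpoint, and Abtb1 is higher at 48 h and lower at the endpoint with no overlap at either.

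The 2 effects had the same sign for 18.2% of NOTCH1 genes. The share was 35.7% in the T-ALL and thymocyte list, nearer to the 40.5% of all genes. In the NOTCH1 list, 15 of 22 genes were negative at 48 h and positive at the endpoint, with medians of -0.18 and 0.33. The acute median was -0.03 with quantile normalization and -0.08 without KO_acute 1 and 2. At 48 h 2 of the 22 fell and 1 rose, where 8.32% and 4.67% of all genes did. At the endpoint none was called. The endpoint effect was above the acute one for 4 and below it for 1, where all genes had 8.98% and 5.22%. Tcf7, a transcription factor of T-cell development, measured 9138, 7561, 12187 and 12347 in KO_acute and 19085, 19381, 18732 and 18585 in WT_acute. At the endpoint it measured 18460 to 24349 in KO and 15799, 13666, 23704 and 17687 in WT_survival, where the groups overlapped through WT_survival 3. It went from -0.91 (adjusted p = 0.00159) to 0.33, with a difference called under every alternative run (adjusted p = 0.000326). Adam10, the protease that cleaves NOTCH receptors, went from -0.72 to 0.46. Ccnd3, a cyclin target, moved the other way, from 0.70 (adjusted p = 0.003) to -0.11.

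The positive endpoint values of these lists rested on 2 control libraries. Nrarp, a feedback inhibitor induced by NOTCH, measured 217, 199, 864 and 705 in WT_survival 1 to 4 and 829 to 1248 in the KO endpoint libraries. Rag2, a recombinase of T-cell receptor assembly, measured 213, 437, 1145 and 1481 in WT_survival 1 to 4 and 923 to 1829 in KO. In both genes WT_survival 1 and 2 were low and WT_survival 3 or 4 lay within or near the KO range. Neither difference was called without WT_survival 1 and 2 (adjusted p = 0.0654 for Nrarp and 0.068 for Rag2). With all libraries Nrarp was at -0.39 and 1.26 and Rag2 at -0.76 and 1.12. Without WT_survival 1 and 2 the endpoint values were 0.31 and 0.07, that of Bcl11b was 0.17 in place of 0.83 and that of Hivep3 0.45 in place of 0.54, and the endpoint median of the NOTCH1 list was 0.00. The T-ALL and thymocyte list of 28 genes had medians of -0.17 and 0.16, with 5 genes that fell and 2 that rose at 48 h (2 and 0 without KO_acute 1 and 2). The endpoint effect was above the acute one for 7 of them, and for 1 without WT_survival 1 and 2, where the endpoint median was -0.11, and with quantile normalization its acute median was 0.01. Dntt, a lymphoblast polymerase, went from -0.48 (adjusted p = 0.0166) to -0.14. Neither Dntt nor Rag2 was called at 48 h without KO_acute 1 and 2 (adjusted p = 0.107 and 0.103). The difference of Tcf7 was 0.99 without WT_survival 1 and 2 and was still called (adjusted p = 0.00395).

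Ccnd1, cyclin D1, was called at the endpoint and is named here after its values were seen. It measured 27.2, 90.4, 51.4 and 45.5 in KO_acute and 51.4, 42.1, 106 and 59.4 in WT_acute, where the groups overlapped. At the endpoint it measured 80.5, 118 and 138 in the first wave, 722, 573 and 324 in the second wave, and 78.8, 63.8, 33.8 and 55.1 in WT_survival. Every KO endpoint library was above every WT one, and the second wave was highest. The difference was -0.30 (SE 0.40) at 48 h and 2.08 (SE 0.31, adjusted p = 0.0379) at the endpoint, 0.97 for the first wave and 3.19 for the second, and 10 of 23 alternatives lost the endpoint call. Cyclin D1 is also a known oestrogen receptor target, and tamoxifen binds that receptor, whose part in the result was not tested. Of the 10 oestrogen response genes compared 3 fell and 1 rose at 48 h, and none was called without KO_acute 1 and 2.

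The class I antigen presentation genes ran against each other. These genes encode the heavy chains that display peptides on the cell surface (the H2 genes), the shared light chain (B2m), the peptide supply and the activator Nlrc5, and interferon induces most of them. The sequences before the start of 2 heavy chain genes and of B2m are shown because the 3 genes are commonly induced together while their values here were not parallel. They are the 250 bases upstream of the start in RefSeq (GRCm38.p6), written 5′ to 3′ on the strand of the gene. Capitals mark 3 motifs on either strand: TTTCNNTT, which lies within the interferon response element, TGACG, the core of a cyclic AMP response element, and CCAAT, a common promoter box.
H2-Q7 chr17:35438905-35439154 plus strand: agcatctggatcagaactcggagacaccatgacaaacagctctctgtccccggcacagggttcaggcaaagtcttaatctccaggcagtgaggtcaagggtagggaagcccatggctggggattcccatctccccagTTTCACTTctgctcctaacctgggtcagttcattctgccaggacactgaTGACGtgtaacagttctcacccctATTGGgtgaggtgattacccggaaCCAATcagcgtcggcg
H2-D1 chr17:35262844-35263093 plus strand: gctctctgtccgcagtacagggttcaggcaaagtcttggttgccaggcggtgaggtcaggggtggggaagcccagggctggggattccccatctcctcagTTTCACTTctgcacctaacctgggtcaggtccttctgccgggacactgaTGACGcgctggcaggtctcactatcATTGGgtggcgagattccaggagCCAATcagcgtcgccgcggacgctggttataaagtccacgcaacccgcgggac
B2m chr2:122147437-122147686 plus strand: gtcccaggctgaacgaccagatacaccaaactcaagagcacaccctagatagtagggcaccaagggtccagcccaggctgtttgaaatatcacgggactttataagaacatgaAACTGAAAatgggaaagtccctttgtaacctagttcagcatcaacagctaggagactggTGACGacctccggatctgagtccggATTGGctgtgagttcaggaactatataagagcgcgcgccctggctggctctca
All 3 windows held each motif, and no matches overlapped. Of all 32851 RefSeq promoter windows of this length, 21.3% held TTTCNNTT, 17.8% held TGACG and 33.8% held CCAAT. Of the 17 genes of the list 15 had a window, and 9, 9 and 12 of them held the 3 motifs. These matches describe letters and say nothing of binding.

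TGACG was in 6 of the 8 heavy chain windows, and TTTCNNTT and CCAAT were in all 8. B2m fell at 48 h. It measured 4346, 3058, 6517 and 5853 in KO_acute and 10693, 13312, 13589 and 13017 in WT_acute. At the endpoint it measured 18246, 16783 and 18865 in the first wave, 11814, 12708 and 10310 in the second wave, and 14334, 14742, 17835 and 12529 in WT_survival. The acute groups were separate, and at the endpoint the first wave was on the high side of WT and the second on the low side. The difference was -1.41 (SE 0.19, adjusted p = 0.000969) at 48 h and -0.03 (SE 0.12) at the endpoint, and the 2 effects differed (adjusted p = 0.000435).

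H2-Q7, a non-classical class I heavy chain, was not called at 48 h and fell at the endpoint. It measured 560, 1497, 1121 and 696 in KO_acute and 932, 641, 949 and 494 in WT_acute, which overlapped. The endpoint values were 596, 653 and 712 in the first wave, 220, 188 and 204 in the second wave, and 1180, 1445, 867 and 1181 in WT_survival. All KO endpoint libraries were below all WT ones. The difference was 0.31 (SE 0.28) at 48 h and -1.65 (SE 0.17, adjusted p = 0.000798) at the endpoint, and the 2 effects differed under every alternative run (adjusted p = 0.000624). The endpoint difference was -0.82 for the first wave and -2.49 for the second. The endpoint call was lost in 2 of 23 alternatives, the first wave alone (adjusted p = 0.617) and the fit with 2 survival groups. It is named here after its values were seen as an endpoint call.

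H2-Q6 measured 82.6, 200, 72.3 and 97.1 in KO_acute and 36.7, 54.1, 33.8 and 23.6 in WT_acute, and rose at 48 h by 1.52 (adjusted p = 0.0172), a call lost without KO_acute 1 and 2 (adjusted p = 0.11). In the survival table it measured 39.2, 16.7 and 25.6 in the first wave, 0, 0 and 3.64 in the second wave, and 137, 152, 38.6 and 22.5 in WT_survival, with overlap between the first wave and WT. H2-Q6 and H2-Q7 are near-identical copies, so the division of reads between them is uncertain. H2-D1, a classical heavy chain, was at 0.25 and -0.91, with a difference called (adjusted p = 0.00209). Nlrc5 rose at 48 h by 1.10 (adjusted p = 0.0214) and was at -0.93 at the endpoint, where the first wave was at 0.03 and the second at -1.89. Over the 17 genes, 3 rose and 2 fell at 48 h (1 and 1 without KO_acute 1 and 2), where 4.67% and 8.32% of all genes did. An unadjusted endpoint p below 0.05 was found for 9, against 13.1% of all genes. The endpoint effect was below the acute one for 6 and above it for 2, where all genes had 5.22% and 8.98%. The copies H2-Q6 and H2-Q7 count as separate genes here. Stat2, which carries interferon signals to the nucleus, measured 196, 207, 211 and 181 in KO_acute and 78, 133, 97 and 139 in WT_acute. The endpoint values were 69.5 to 145 in KO and 165 to 305 in WT_survival. The groups were separate at both times and in opposite directions, at 0.86 (adjusted p = 0.0254) and -0.99 (adjusted p = 0.251), with a difference called (adjusted p = 0.00112). Stat2 was not called at 48 h without KO_acute 1 and 2 (0.84, adjusted p = 0.111). The interferon response list of 24 genes had medians of 0.22 and -0.25. At 48 h 1 of them rose and 1 fell, where 4.67% and 8.32% of all genes did. The acute median of the list was 0.04 without KO_acute 1 and 2, and the endpoint median was -0.09 without WT_survival 4.

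Neutrophil, B-cell and T-cell markers had medians of opposite sign at the 2 times. Erythroid, plasma, NK and platelet medians were negative at both, and stromal, dendritic and macrophage medians positive at both. Several of these signs rested on a few libraries. Without WT_survival 3 the endpoint median was 0.19 for erythroid and -0.04 for stromal markers. Without KO_acute 1 and 2 the acute median was -0.12 for dendritic, -0.01 for macrophage and 0.02 for NK markers. All 12 T cell and T-ALL markers were negative at 48 h (4 fell), with medians of -0.20 and 0.17. Without KO_acute 1 and 2 none was called at 48 h, and without WT_survival 1 and 2 the endpoint median was -0.16. Their summed share was 0.524 to 0.733% in KO_acute and 0.67 to 0.82% in WT_acute. It was 0.718 to 0.894% in the first wave and 0.532 to 0.64% in the second. WT_survival 1 to 4 had 0.381, 0.429, 0.749 and 0.797%. In bulk RNA, fewer cells of a type and less RNA per cell cannot be told apart, and the part of these cells in the results above was not tested. All 14 neutrophil markers compared, of 20 listed, were positive at 48 h (median 0.75, 2 rose) and negative at the endpoint (median -0.54, none called). Their summed share was 0.0322 to 0.0883% in KO_acute, 0.0174 to 0.0356% in WT_acute, 0.00544 to 0.012% in the KO endpoint libraries and 0.0046 to 0.0263% in WT_survival. Ngp, a neutrophil granule protein, measured 1285, 1630, 814 and 555 in KO_acute and 312, 657, 274 and 474 in WT_acute. In the survival table it measured 46.2 to 124 in KO and 661, 352, 54.2 and 106 in WT_survival. KO_acute 1 and 2 were the highest, and WT_survival 1 and 2 stood above all other endpoint libraries. Ngp was at 1.29 (adjusted p = 0.0185) and -1.26, and without WT_survival 1 and 2 the endpoint value was 0.07. Ltf, lactoferrin, was at 2.10 (adjusted p = 0.0075) and -0.92, and at 0.20 at the endpoint without those 2 libraries. The neutrophil median was then 0.12 at the endpoint. Without KO_acute 1 and 2 neither Ngp (0.73, adjusted p = 0.182) nor Ltf (1.18, adjusted p = 0.0587) was called at 48 h.

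B-cell markers kept their endpoint direction without those libraries. Of 13 compared, of 15 listed, 12 were positive at 48 h and negative at the endpoint, with medians of 0.71 and -0.66 and none called at either time. The endpoint median was -0.71 without WT_survival 1 and 2. The summed share of the list was 0.0108 to 0.0295% in KO_acute and 0.00738 to 0.0172% in WT_acute. It was 0.00651 to 0.0101% in the KO endpoint libraries and 0.0115 to 0.016% in WT_survival, with no overlap. Pax5, the B-cell transcription factor, measured 10.4, 121, 55.5 and 53 in KO_acute and 87.2, 12.6, 8.2 and 13.8 in WT_acute. The endpoint values were 0 to 25.3 in KO and 31.8 to 104 in WT_survival, and the 2 effects differed (adjusted p = 0.00317). Cd74, the class II invariant chain, was at 1.09 and -0.73 (adjusted p of the difference = 0.0101). The H2 and interferon genes are also expressed by these cells.

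Lyz2, a lysozyme of macrophages and neutrophils, went from 1.46 (adjusted p = 0.00688) to -0.35. This call was lost without KO_acute 1 and 2 (adjusted p = 0.061). Of 18 erythroid markers 2 fell at 48 h, with medians of -0.71 and -0.11. Without KO_acute 1 and 2 the erythroid acute median was -1.33 and 13 fell. The remaining marker lists, for plasma, dendritic and NK cells, macrophages, platelets, and stroma and endothelium, had 4 to 11 genes compared and at most 1 gene called in each direction at 48 h.

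Restricted to genes whose more abundant group averaged 100 or more in each table, those with the largest called difference between the 2 times and opposite signs were named by rule. With the endpoint effect above the acute one, Tmem129, a ubiquitin ligase of the endoplasmic reticulum, measured 114, 46.9, 48.2 and 39.8 in KO_acute and 203, 209, 162 and 200 in WT_acute. In the survival table it measured 127 to 194 in KO and 44.3, 74.5, 98.2 and 85.1 in WT_survival. The groups were separate at both times, in opposite directions, at -1.75 (adjusted p = 0.00365) and 1.05 (adjusted p = 0.251), and the difference of 2.79 was called under every alternative run (adjusted p = 0.000125). Dsc2 (-1.62 to 1.77), Pkhd1l1 (-2.19 to 0.55), Cpsf4l (-0.13 to 2.57), Ttc30a1 (-1.25 to 1.34) and Ifi205 (-0.97 to 1.54) completed the 6. Without WT_survival 1 and 2 the endpoint values of these 5 were 0.80, -0.60, 1.45, -0.03 and 0.37, and none of the 5 differences was called.

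With the endpoint effect below the acute one, Abtb1, a BTB-domain protein, measured 244, 198, 275 and 181 in KO_acute and 55.6, 88.2, 143 and 77.7 in WT_acute. The endpoint values were 119 to 230 in KO and 352, 303, 258 and 451 in WT_survival. The groups were separate at both times, at 1.36 (adjusted p = 0.0075) and -1.11 (adjusted p = 0.218), and the difference of -2.47 was called under every alternative run (adjusted p = 0.000125). Slfn4, a myeloid Schlafen gene, measured 1681, 1803, 469 and 271 in KO_acute and 198 to 263 in WT_acute, and went from 1.75 to -0.81. It was high in KO_acute 1 and 2, and without them its acute value was 0.60 (adjusted p = 0.17). Vwce measured 2120 and 2058 in WT_survival 1 and 2 against 104 and 207 in WT_survival 3 and 4 and 70.3 to 216 in KO. Its values were 0.92 and -1.97, and -0.05 at the endpoint without those 2 libraries. Rps6ka2, a kinase of the ERK pathway, was at 1.5 and -0.96, and Xkrx at 1.06 and -1.58, and Ngp is described above. Without WT_survival 1 and 2 the differences of Rps6ka2 and Xkrx were not called (adjusted p = 0.084 and 0.0772).

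With 3 genes called at the endpoint, joint calls could not measure how many genes moved alike at the 2 times. Apart from Acly, no gene was called in both comparisons, so the rule was filled with genes that were called at 48 h, had the same sign at the endpoint and did not overlap in either table. These were Sike1 and Msto1, which were higher, and Crip1 and Pdcd6ip, which were lower. Sike1, a suppressor of the kinase IKK-epsilon, measured 596, 1026, 505 and 653 in KO_acute and 398, 388, 463 and 391 in WT_acute. In the survival table it measured 629 to 753 in KO and 424, 424, 492 and 599 in WT_survival, and it was at 0.71 (adjusted p = 0.0288) and 0.52 (adjusted p = 0.286). Msto1, of mitochondrial morphology, was at 0.73 (adjusted p = 0.0372) and 0.41, and 12 of 18 alternatives lost its acute call. Sike1, Msto1 and Pdcd6ip were not called at 48 h without KO_acute 1 and 2 (adjusted p = 0.124, 0.184 and 0.057). Crip1, a LIM-domain protein, measured 87.1, 98.3, 178 and 112 in KO_acute and 284 to 354 in WT_acute, and 216 to 400 in KO at the endpoint against 403 to 505 in WT_survival. It was at -1.48 (adjusted p = 0.00179) and -0.31 (adjusted p = 0.515), and the effects differed in size (adjusted p = 0.011), a call lost without KO_acute 1 and 2 (adjusted p = 0.0696). Pdcd6ip, an endosomal sorting protein, was at -0.79 (adjusted p = 0.00746) and -0.27 (adjusted p = 0.373), and a difference between its 2 effects was not detected at this spread (0.53, SE 0.20, adjusted p = 0.08).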

How the data were processed

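Expression was compared in 18 libraries from 2 deposited tables, 1 acute and 1 survival. Their values are a normalized signal per gene that the authors deposited, and they are not raw counts. Per the submitters' processing notes, kallisto 0.44.0, DESeq and GRCm38 were used. Whole reads could not be recovered from the values, so depth is unknown. The normalized totals were 7067041 to 8026397 in the acute and 9193232 to 10386517 in the survival table. The tables were normalized separately and each was fitted alone.

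Genes with a mean of at least 10 were tested on log2(value + 1), which understates changes of low genes, with limma 3.58.1 in R 4.3.3 (trended variance, Benjamini-Hochberg adjustment). The endpoint effect is the mean of the 2 wave effects. The difference of the effects is that of the 2 limma estimates, with the root of the summed squared standard errors, Satterthwaite degrees of freedom and adjustment over 13742 genes. The procedure was tested on simulated data. Groups come from the labels.

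The genes compared, the lists and the tests were chosen with earlier results of these data known. Genes were named by rule. Acly came first, then up to 6 genes each way for equal and for opposite effects. From each list came the 3 members with the smallest acute and endpoint p and the 2 with the smallest p of the difference, of which the text gives a part, and some are not reported here. H2-Q7 and Ccnd1 as endpoint calls were added after their values were seen. Alternatives changed the filter, pseudocount, normalization, variance trend, waves, replicate block and libraries.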

Additional observations from a re-analysis of the deposited data

Results flagged for a closer look

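For 73 of the 78 genes with reported values, the endpoint effect differed from the acute effect of the same contrast at an adjusted p of 0.05, by the difference of limma estimates. Since many were named for that difference, their number describes the choice. Values are endpoint minus acute log2 differences.

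The endpoint effect was above the acute one for 52 genes, led by Dsc2 (3.39), Tmem129 (2.79), Pkhd1l1 (2.74), Cpsf4l (2.7), Ttc30a1 (2.59), Ifi205 (2.5), Ccnd1 (2.38), Rpl39 (2.34) and Hist1h4d (2.13). The next values were Hk2 (2.12), Hist1h4h (2.01), Rag2 (1.88), Sdf2l1 (1.85), Atp5o (1.72), Ndufa4 (1.71), Nrarp (1.66), Ccng1 (1.64) and Ogdh (1.61). After these came Ndufb2 (1.58), Rfc4 (1.54), Mthfd2 (1.5), Idh3a (1.43), B2m (1.38), Mpc1 (1.37), Idh1 (1.31), Pdia3 (1.28) and Ccne2 (1.28). Lower in size were Psat1 (1.25), Ccnb1 (1.24), Tcf7 (1.23), Atp5b (1.21), Sdhb (1.2), Adam10 (1.18), Crip1 (1.17), Atp5c1 (1.15) and Ddx21 (1.15). Smaller values were Eno1 (1.14), Sqle (1.14), Psma5 (1.14), Psma1 (1.11), Mad2l1 (1.09), Acat2 (1.05), Ldha (1.05) and Hacd3 (1.03). The rest were Acaa1a (1), Bcl11b (1), Odc1 (0.96), Slc16a1 (0.936), Pcna (0.845), Hmgcs1 (0.823), Pgk1 (0.803) and Hivep3 (0.714).

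The endpoint effect was below the acute one for 21 genes, led by H2-Q6 (-4.84), Pax5 (-4.73), Ltf (-3.02), Vwce (-2.88), Xkrx (-2.64), Slfn4 (-2.55), Ngp (-2.54) and Abtb1 (-2.47). The next values were Rps6ka2 (-2.46), Nlrc5 (-2.02), H2-Q7 (-1.96), Stat2 (-1.85), Cd74 (-1.82), Lyz2 (-1.81), Srebf1 (-1.44), H2-D1 (-1.17) and Slc7a11 (-1.12). The rest were Ccnd3 (-0.807), Cdc25b (-0.698), Acaca (-0.682) and Acly (-0.613).

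In 6 of 234 pairs of a gene and a group of 4 libraries, 1 library lay far from the rest of its group, where chance gives about 1 in 20. In WT_acute these were Sike1 in replicate 3 (463), Idh3a and Acaca in replicate 4 (911 and 1930), and Rpl39 in replicate 1 (2680). In WT_survival they were Crip1 in replicate 1 (505) and Atp5o in replicate 4 (654), all as normalized values.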

How the results depend on the processing

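The share of same signs stayed below 50% under every alternative run, and Pearson's r stayed negative. The share was 42.1% with no filter, 41.4% with quantile normalization, 42.2% without WT_survival 1 and 2, 42.5% with the second wave alone, and 38.8 to 43.1% leaving out 1 library. Among acute calls it was 23% without a variance trend, 29% with the second wave alone and 21.7 to 34.5% leaving out 1 library. Acute calls numbered 693 without a trend, 903 without KO_acute 1 and 2, and 983 (without WT_acute 4) to 1634. Endpoint calls numbered 5 without WT_survival 1 and 2, 0 for the first wave alone, 32 for the second, 1 with 2 groups in the fit, and 2 to 155 (without WT_survival 3). Calls of the difference numbered 1172 without a trend, 964 without WT_survival 1 and 2, 1272 for the first wave alone, and 1196 (without WT_survival 2) to 2740 (without WT_survival 3). For Acly, the endpoint value was -1.22 for the first wave alone, no longer called. Its difference was not called without a trend (-0.613), without KO_acute 1 and 2 (-0.483), without WT_survival 1 and 2 (-0.586) or for the first wave alone (-0.444), and was -0.692 to -0.543 leaving out 1 library. The acute median of the T-ALL and thymocyte list turned to 0.0121 with quantile normalization and the endpoint median of the oestrogen response list to -0.0427 for the first wave alone, and the cause was not tested. The replicate numbers did not pair the libraries (correlations of deviations of -0.0289 to 0.0946). With the replicate block the calls were 1391, 2 and 1710 for the acute, endpoint and difference tests, and the shares of same signs were 43.2% over all genes and 34.6% among acute calls.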
